A study of Mus musculus with 4 samples.

Results

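The Nodal and activin genes examined here are 10 genes of one signalling pathway, taken by symbol from a deposited table of 22883 gene rows. Of the 10, 9 had a row (Nodal, Gdf3, Inhbb, Tdgf1, Acvr2b, Lefty1, Lefty2, Fst and Smad7), and Inhba had none under that symbol. Each of the 9 symbols is represented by its row with the highest mean. The values are FPKM, the fragments per kilobase of gene model scaled to the size of each library, from total RNA depleted of ribosomal RNA. The cells were Exosc3 CKO mouse embryonic stem cells, clones derived from the V6.5 line and grown without feeders. Exosc3 encodes a subunit of the RNA exosome, the complex that trims and degrades RNA from its 3′ end. In the Exosc3-depleted group (2 libraries) doxycycline was withdrawn for 3 days, and in the Exosc3-present group (2 libraries) cells stayed in 0.1 µg/ml doxycycline. Both groups carry the same conditional allele, so doxycycline and Exosc3 changed together and cannot be told apart. The number of clones is not given, nor whether the 2 libraries of a group came from separate cultures, so p-values measure only the spread between these libraries.

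Nodal, GDF3 and the activins are secreted ligands of the TGF-β family. They bind paired type I and type II serine/threonine kinase receptors, and Nodal and GDF3 also need the cell-surface co-receptor Cripto, encoded by Tdgf1. Activated receptors phosphorylate SMAD2 and SMAD3, which enter the nucleus with SMAD4 and, with partners such as FOXH1, switch on targets that include Nodal itself and its antagonists Lefty1 and Lefty2. In embryonic stem cells and the early embryo this loop bears on pluripotency and on the choice of mesoderm and endoderm.

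The libraries held between 38095698 and 60851774 fragments in the per-million total, recovered from the spacing of the FPKM values. The targeted gene, Exosc3, stood at 0.635 and 0.691 FPKM in Exosc3-depleted libraries, against 24.2 and 23.2 FPKM in Exosc3-present libraries. Of 9336 rows with a mean of at least 0.5 FPKM, 42.7% passed the test (limma, Benjamini-Hochberg adjusted p under 0.05), 12.6% higher and 30.1% lower in Exosc3-depleted cells. The median tested row was at a log2 fold change of -0.27, and the 50 highest rows took 52.2% and 53.9% of the summed FPKM in Exosc3-depleted libraries, against 45.0% and 43.7% in Exosc3-present libraries. The split of calls followed the scaling: 29.6% of called rows were higher with FPKM as deposited, against 46.7% after median-of-ratios scaling, 47.0% after quantile normalization, 53.7% with scaling that left out the 50 highest rows and 45.2% with scaling to fragments within listed models. Of 7 pluripotency markers 5 had a row (not Sox2 or Nanog), and they summed to 596 and 478 FPKM in Exosc3-depleted libraries, against 866 and 851 FPKM in Exosc3-present libraries. Of these 5, 3 fell and none rose. The 3 were Zfp42 (24.7 and 35.2 FPKM in Exosc3-depleted libraries, against 80.8 and 88.6 in Exosc3-present libraries), Esrrb (45.2 and 42.9 FPKM in Exosc3-depleted libraries, against 107 and 114 in Exosc3-present libraries) and the pathway member Tdgf1. Tdgf1 was at 36.0 and 49.9 FPKM in Exosc3-depleted libraries, against 125 and 133 in Exosc3-present libraries. Its fall thus enters both the marker sum and the pathway results, which are not separate in this respect. Pou5f1, the defining stem cell gene for OCT4, did not pass and was at 413 and 286 FPKM in Exosc3-depleted libraries and at 471 and 434 FPKM in Exosc3-present libraries. Markers of other early lineages moved as well. The 8 primitive endoderm markers summed to 45.8 and 44.9 FPKM in Exosc3-depleted libraries, against 11.2 and 13.5 FPKM in Exosc3-present libraries, with 5 of 6 tested members higher and most of the sum from Col4a1, while none was at 0 in all libraries. Of those higher, Gata6, Sox17 and Pdgfra were under 0.5 FPKM in both Exosc3-present libraries. They were therefore tested only through the Exosc3-depleted libraries, and the count partly follows from the filter. The 6 trophectoderm markers summed to 119 and 88.0 FPKM in Exosc3-depleted libraries, against 22.3 and 24.3 FPKM in Exosc3-present libraries. That sum came almost wholly from Krt8 and Krt18, 2 of the 3 tested markers, which were higher while Eomes was lower. Among the untested markers, Elf5 was at 0 in both Exosc3-depleted libraries, against 0.0371 and 0.0163 FPKM in Exosc3-present libraries. Cdx2 (0.245 and 0.156 FPKM, against 0.0230 and 0.0169) and Gata3 (0.0980 and 0.126 FPKM, against 0 and 0.00563) were instead higher in Exosc3-depleted libraries. The 5 mesendoderm markers summed to 2.50 and 2.22 FPKM in Exosc3-depleted libraries and to 1.05 and 1.18 FPKM in Exosc3-present libraries, with 1 of 2 tested members higher (Wnt3) and 1 lower (Eomes). The 6 fibroblast markers summed to 11.9 and 8.88 FPKM in Exosc3-depleted libraries and to 6.48 and 7.24 FPKM in Exosc3-present libraries, with 2 of 4 tested members higher and 1 lower. Wnt3 and the higher fibroblast marker Twist1 were likewise tested only through the Exosc3-depleted libraries. Eomes and the lower fibroblast marker Thy1 were under 0.5 FPKM in both Exosc3-depleted libraries and were tested only through the Exosc3-present libraries. The part of these markers in the values below was not tested. In such bulk RNA, fewer cells that express a gene and less of its RNA per cell cannot be told apart.

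Lefty1 and Lefty2 are close paralogues, and their sequences are shown because their RNAs moved in opposite directions. Both coding regions, the longest open reading frames of the longest GENCODE M21 transcripts (GRCm38, chromosome 1), have 1107 bases, and 91.9% of the positions are identical, with a longest identical run of 140 bases. The window of 120 bases with the most differences spans coding bases 46 to 165 and holds 34 of them, printed in capitals.
Lefty1: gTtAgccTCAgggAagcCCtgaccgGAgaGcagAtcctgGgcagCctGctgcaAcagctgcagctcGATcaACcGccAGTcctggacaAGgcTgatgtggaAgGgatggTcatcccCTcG
Lefty2: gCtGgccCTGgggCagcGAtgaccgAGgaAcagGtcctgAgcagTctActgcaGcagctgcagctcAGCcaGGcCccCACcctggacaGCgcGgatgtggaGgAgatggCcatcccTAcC
Of the distinct 50-base windows of the Lefty1 transcript, 281 of 1571 (17.9%) also occur in Lefty2, and these make up 11.6% of the Lefty2 windows. Fragments from those stretches are uncertain between the 2 genes. For Tdgf1, 236 of 1883 windows (12.5%) occur in the pseudogene Tdgf1-ps1, and for Gdf3 42 of 2076 windows (2.02%) occur in other genes. Nodal, Inhbb, Acvr2b, Fst and Smad7 shared no 50-base window with a transcript of another gene.

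Promoters are shown for Nodal, which rose, and for Inhbb and Tdgf1, the members with the largest falls. RefSeq sequences (GRCm38.p6) run from 250 bases before to 50 bases after the annotated start of each gene, and 5 of the 10 members had one. Capitals mark matches on either strand to the SMAD element CAGAC, the FOXH1 element AATNCACA and the CACC-box GGGCGTGG, the type of element bound by KLF and SP factors. The last of these was added after the Tdgf1 sequence had been read, and no matches overlapped.
Nodal, chr10:61417722-61418021, plus strand: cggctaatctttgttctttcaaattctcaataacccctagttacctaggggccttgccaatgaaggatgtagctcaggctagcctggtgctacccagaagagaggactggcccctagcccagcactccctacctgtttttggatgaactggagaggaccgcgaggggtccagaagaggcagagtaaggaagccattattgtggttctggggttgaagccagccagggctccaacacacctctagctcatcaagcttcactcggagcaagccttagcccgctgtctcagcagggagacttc
Inhbb, chr1:119422199-119422498, minus strand: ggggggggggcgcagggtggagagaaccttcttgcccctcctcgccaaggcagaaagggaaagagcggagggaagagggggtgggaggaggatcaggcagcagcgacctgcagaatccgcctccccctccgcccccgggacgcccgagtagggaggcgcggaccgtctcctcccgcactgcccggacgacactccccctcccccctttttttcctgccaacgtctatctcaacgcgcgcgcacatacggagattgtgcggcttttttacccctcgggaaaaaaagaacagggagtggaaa
Tdgf1, chr9:110946109-110946408, minus strand: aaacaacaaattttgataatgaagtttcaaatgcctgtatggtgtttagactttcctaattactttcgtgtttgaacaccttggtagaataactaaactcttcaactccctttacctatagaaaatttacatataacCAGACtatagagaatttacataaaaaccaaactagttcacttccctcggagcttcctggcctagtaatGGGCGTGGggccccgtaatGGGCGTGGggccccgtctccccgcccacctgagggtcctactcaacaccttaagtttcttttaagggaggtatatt
The Tdgf1 window held GGGCGTGG at 45 and at 26 bases before the start, and 5.33% of 32851 promoter windows hold that element at least once. It also held CAGAC at 113 bases before the start, an element found in 49.6% of windows. The Nodal and Inhbb windows held none of the 3 elements in these letters, and the Acvr2b window held 1 match, to CAGAC. AATNCACA occurs in 3.60% of all windows.

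Among the ligands, Nodal and Gdf3 RNA rose in Exosc3-depleted cells, whereas Inhbb RNA fell about 20.1-fold. Nodal (uc007ffy.2), the ligand that patterns mesendoderm and the left-right axis, was at 47.3 and 38.3 FPKM in Exosc3-depleted libraries, against 18.0 and 19.1 FPKM in Exosc3-present libraries. Both Exosc3-depleted libraries lay above both others, and replicate 1 was the higher of the pair. The mean was 42.8 ± 6.3 FPKM in Exosc3-depleted cells and 18.6 ± 0.75 FPKM in Exosc3-present cells (SD, n = 2 each), a 2.31-fold rise. On the log2(FPKM + 0.5) scale the change was 1.18 (SE 0.18, limma adjusted p = 0.00284), or 1.45 above the median row. It rested on 3772 and 3368 recovered fragments in Exosc3-depleted libraries and on 2297 and 2208 in Exosc3-present libraries.

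Gdf3 (uc009dpm.1), a Nodal-like ligand of the pluripotent epiblast, had 33.9 and 26.7 FPKM in Exosc3-depleted libraries, against 18.3 and 19.2 FPKM in Exosc3-present libraries. The groups did not overlap, and the Exosc3-depleted pair again had replicate 1 above replicate 2. The rise was 1.61-fold (log2 0.67, SE 0.19, limma adjusted p = 0.0269). The call ended without Exosc3-present replicate 1 (log2 0.63, limma adjusted p = 0.250) and without Exosc3-present replicate 2 (log2 0.70, limma adjusted p = 0.203). The gain was smaller than that of Nodal in each library, where the ratio of Nodal to Gdf3 was 1.39 and 1.44 in Exosc3-depleted libraries and 0.985 and 0.992 in Exosc3-present libraries.

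Inhbb (uc007cir.1) encodes the βB subunit, which forms activin B as a dimer and inhibin B with the α subunit. Its RNA was at 0.444 and 0.476 FPKM in Exosc3-depleted libraries, against 8.71 and 9.80 FPKM in Exosc3-present libraries. As a fold, no other member had so wide a gap between groups, and the low pair still held 72 and 85 fragments, against 2256 and 2303 in Exosc3-present libraries. The mean was 0.460 ± 0.022 FPKM in Exosc3-depleted cells and 9.26 ± 0.77 FPKM in Exosc3-present cells (SD, n = 2 each). The log2 fold change was -3.34 (95% interval -3.78 to -2.91, limma adjusted p = 0.000138), and 8 tested rows (0.0857%), Inhbb included, had a change as low. The pseudocount shrinks it, since it was -4.06 with a pseudocount of 0.1 and -2.81 with a pseudocount of 1. The α subunit gene Inha, outside the 10 members and too low to be tested, was at 0.197 and 0.147 FPKM in Exosc3-depleted libraries and at 0.180 and 0.173 FPKM in Exosc3-present libraries.

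**Figure D1:**
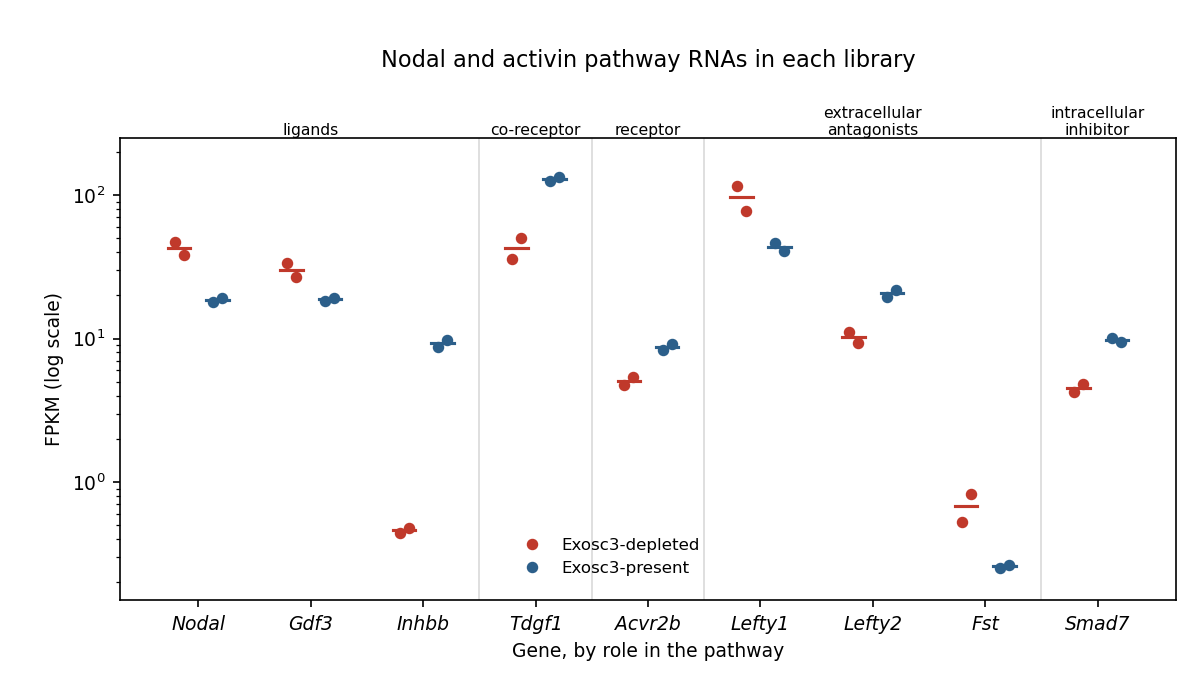
FPKM (log scale) of the 9 genes with a row, ordered by role; points are libraries (2 per group, Exosc3-depleted in red and Exosc3-present in blue) and bars are group means. Nodal, Gdf3, Lefty1 and Fst lie higher in Exosc3-depleted libraries, the other 5 lie lower, and no gene's groups overlap.

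The co-receptor and the receptor were both lower in Exosc3-depleted cells. Tdgf1 (uc009rvg.1), which encodes Cripto, was at 36.0 and 49.9 FPKM in Exosc3-depleted libraries, against 125 and 133 FPKM in Exosc3-present libraries. In the Exosc3-present cells it was the most abundant of the members, and its lowest value there was above its highest value in Exosc3-depleted cells. The mean was 42.9 ± 9.8 FPKM in Exosc3-depleted cells and 129 ± 5.1 FPKM in Exosc3-present cells (SD, n = 2 each), a 3.01-fold fall. On the log2 scale this was -1.60 (SE 0.20; adjusted p = 0.00135 by limma), and it passed in all 17 alternative fits.

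Acvr2b (uc009sax.1) encodes the type II receptor ACVR2B, which binds activins and Nodal. It was at 4.77 and 5.42 FPKM in Exosc3-depleted libraries, against 8.30 and 9.17 FPKM in Exosc3-present libraries. The groups did not overlap, but the difference was the smallest among the members that fell (log2 -0.72, SE 0.18, limma adjusted p = 0.0189), or -0.46 from the median row. It lost its call under median-of-ratios scaling (log2 -0.50, limma adjusted p = 0.0761), quantile normalization (-0.43, adjusted p = 0.0939), scaling without the 50 highest rows (-0.41, adjusted p = 0.141) and scaling to fragments within listed models (-0.51, adjusted p = 0.0612). It also did not pass without Exosc3-present replicate 1 (limma adjusted p = 0.186) or replicate 2 (limma adjusted p = 0.311). The type I receptor gene Acvr1b, outside the 10 members, was lower as well, at 2.91 and 3.18 FPKM in Exosc3-depleted libraries against 7.44 and 8.30 FPKM in Exosc3-present libraries (log2 -1.24, SE 0.18, limma adjusted p = 0.00256), and this passed in all 17 alternative fits.

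The antagonists did not move together, since Lefty1 RNA rose and Lefty2 RNA fell. Both Lefty proteins are secreted and block Nodal by binding its receptors or the ligand. Lefty1 (uc007dww.1) was at 117 and 77.4 FPKM in Exosc3-depleted libraries, against 46.7 and 40.5 FPKM in Exosc3-present libraries. The groups did not overlap, although the Exosc3-depleted pair differed by 40.4% of its mean, the widest spread within a pair of any tested member. The mean was 97.0 ± 27.7 FPKM in Exosc3-depleted cells and 43.6 ± 4.4 FPKM in Exosc3-present cells (SD, n = 2 each), a 2.22-fold rise (log2 1.12, SE 0.23, limma adjusted p = 0.00816). Lefty2 (uc007dwu.1) was at 11.1 and 9.39 FPKM in Exosc3-depleted libraries, against 19.6 and 21.9 FPKM in Exosc3-present libraries. This was a 2.03-fold fall without overlap (log2 -0.99, SE 0.18, limma adjusted p = 0.00572). Without Exosc3-present replicate 2 the Lefty2 call ended (log2 -0.91, limma adjusted p = 0.102). Lefty1 passed in all 17 alternative fits. Within a library, the ratio of Lefty1 to Lefty2 was 10.5 and 8.24 in Exosc3-depleted cells, against 2.38 and 1.85 in Exosc3-present cells. Up to 17.9% of the windows of the Lefty1 transcript are shared between the 2 genes, as given above, and the effect of shared reads on this ratio was not tested.

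Fst (uc007rxn.1) encodes follistatin, which binds and neutralises activins. It was near the floor of the data, at 0.528 and 0.826 FPKM in Exosc3-depleted libraries, against 0.253 and 0.263 FPKM in Exosc3-present libraries. These values stand for 47 and 81 fragments in Exosc3-depleted libraries and for 36 and 34 in Exosc3-present libraries. The groups did not overlap, but the mean of all 4 libraries lay under the 0.5 FPKM filter and the gene was not tested. With no filter on low values, where 29.9% of 15471 rows were called, it passed as higher (log2 0.62, SE 0.15, limma adjusted p = 0.0401).

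Smad7 (uc008fqd.1) encodes the inhibitory SMAD, which blocks activated type I receptors and is itself induced by TGF-β family signals. It was at 4.24 and 4.80 FPKM in Exosc3-depleted libraries, against 10.04 and 9.51 FPKM in Exosc3-present libraries. Both pairs were tight and far apart, a 2.16-fold fall (log2 -1.04, SE 0.18, limma adjusted p = 0.00468). It kept its call under every scaling tried, with log2 values of -0.82 to -0.72, but lost it without Exosc3-present replicate 1 (limma adjusted p = 0.0824) or replicate 2 (limma adjusted p = 0.0635).

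**Figure D2:**
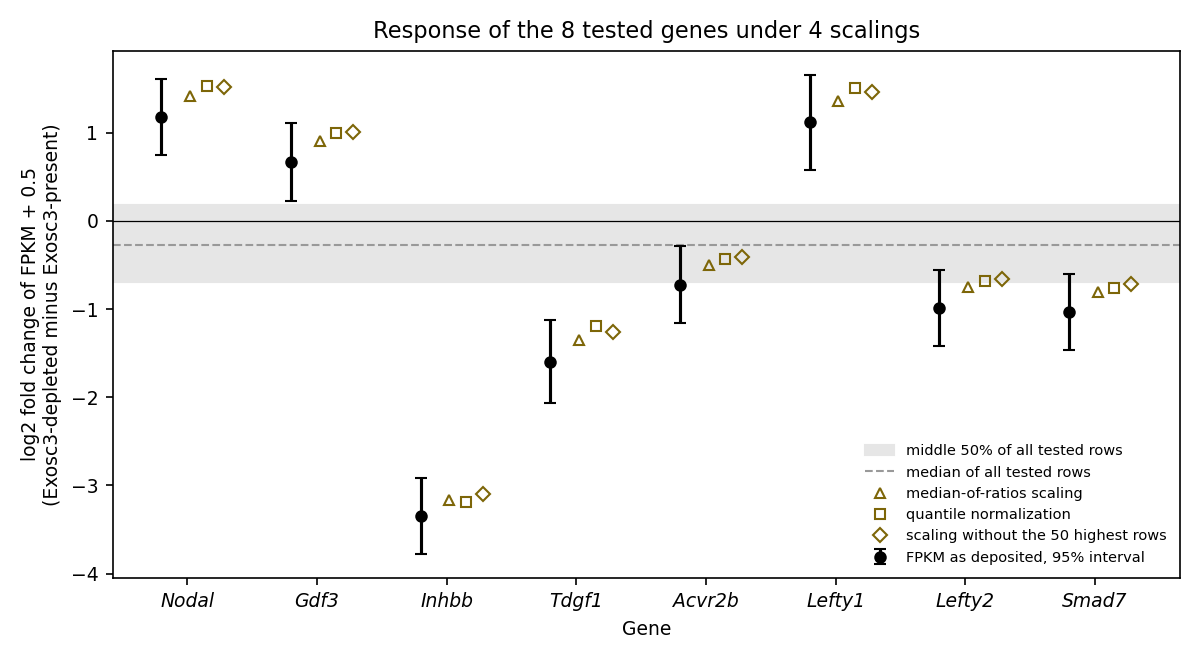
Log2 fold change (Exosc3-depleted minus Exosc3-present, FPKM + 0.5) of the 8 tested genes, with 95% limma intervals for FPKM as deposited (black) and the values under 3 other scalings (open symbols); the grey band holds the middle 50% of all tested rows. Nodal, Gdf3 and Lefty1 lie above the band, and every open symbol lies higher than the black point of the same gene.

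Of the 8 tested members 3 rose and 5 fell, where 42.7% of all tested rows were called, 12.6% upward and 30.1% downward. The median of the 8 log2 fold changes was -0.86, beside -0.27 over all tested rows. The members were selected with results of these data known, so their count is a description. All 8 also passed when the filter used the Exosc3-present libraries alone, so none was tested only through its rise. That filter cannot show the same for the falls. Inhbb, at a mean of 0.460 FPKM in Exosc3-depleted cells, was tested only through the Exosc3-present libraries, where it was high. The groups did not overlap for any of the 8, nor for 73.1% of all tested rows. The 8 kept their sign in all 17 alternative fits. With Exosc3-present replicate 1 left out 5 members passed, and with Exosc3-present replicate 2 left out 4 passed (Nodal, Inhbb, Tdgf1 and Lefty1).

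The order of levels per length also differed between the groups. In Exosc3-depleted cells Lefty1 was highest at a mean of 97.0 FPKM, followed by Tdgf1 (42.9), Nodal (42.8), Gdf3 (30.3), Lefty2 (10.2), Acvr2b (5.09), Smad7 (4.52), Fst (0.677) and Inhbb (0.460). In that order the libraries of Tdgf1 and Nodal overlapped, as did those of Acvr2b and Smad7. In Exosc3-present cells Tdgf1 was highest at 129 FPKM, followed by Lefty1 (43.6), Lefty2 (20.8), Gdf3 (18.8), Nodal (18.6), Smad7 (9.77), Inhbb (9.26), Acvr2b (8.74) and Fst (0.258). There the libraries of Gdf3 and Nodal, of Smad7 and Inhbb, and of Inhbb and Acvr2b overlapped.

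Ratios within a library compare ligands with antagonists and receptors and do not depend on scaling between libraries. They were not tested, since an exact permutation of 2 libraries against 2 gives no two-sided p below 0.333. Nodal over Lefty1 was 0.406 and 0.495 in Exosc3-depleted libraries, against 0.386 and 0.472 in Exosc3-present libraries. These ranges overlapped, while both RNAs were higher in Exosc3-depleted cells. Nodal over Lefty2 was 4.26 and 4.08 in Exosc3-depleted libraries, against 0.918 and 0.871 in Exosc3-present libraries, a 4.66-fold difference with no overlap. Summed over the 3 measured ligands and the 3 extracellular antagonists, the ratio was 0.637 and 0.748 in Exosc3-depleted libraries and 0.676 and 0.768 in Exosc3-present libraries, with overlap. Such sums follow the most abundant genes. Lefty1 was the largest antagonist term in every library (117 and 77.4 FPKM in Exosc3-depleted libraries, against 46.7 and 40.5 in Exosc3-present libraries). The overlap of the sums therefore says little about single pairs such as Inhbb and Fst.

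Relative to the co-receptor Tdgf1, the receptor Acvr2b and the inhibitor Smad7, the ligand Nodal was higher in each Exosc3-depleted library than in either Exosc3-present library. Nodal over Tdgf1 was 1.31 and 0.769 in Exosc3-depleted libraries, against 0.144 in both Exosc3-present libraries. The 2 Exosc3-depleted libraries differed here, with Nodal higher and Tdgf1 lower in replicate 1 than in replicate 2. Nodal over Acvr2b was 9.92 and 7.07 in Exosc3-depleted libraries, against 2.17 and 2.08 in Exosc3-present libraries. Nodal over Smad7 was 11.2 and 7.98 in Exosc3-depleted libraries, against 1.79 and 2.01 in Exosc3-present libraries. For activin B the direction was the opposite: Inhbb over Acvr2b was 0.0931 and 0.0878 in Exosc3-depleted libraries, against 1.05 and 1.07 in Exosc3-present libraries. Inhbb over its antagonist Fst was 0.841 and 0.576 in Exosc3-depleted libraries, against 34.4 and 37.2 in Exosc3-present libraries. The 2 ligands were farther apart in Exosc3-depleted cells, with Nodal over Inhbb at 106 and 80.5 in Exosc3-depleted libraries, against 2.07 and 1.95 in Exosc3-present libraries.

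**Figure D3:**
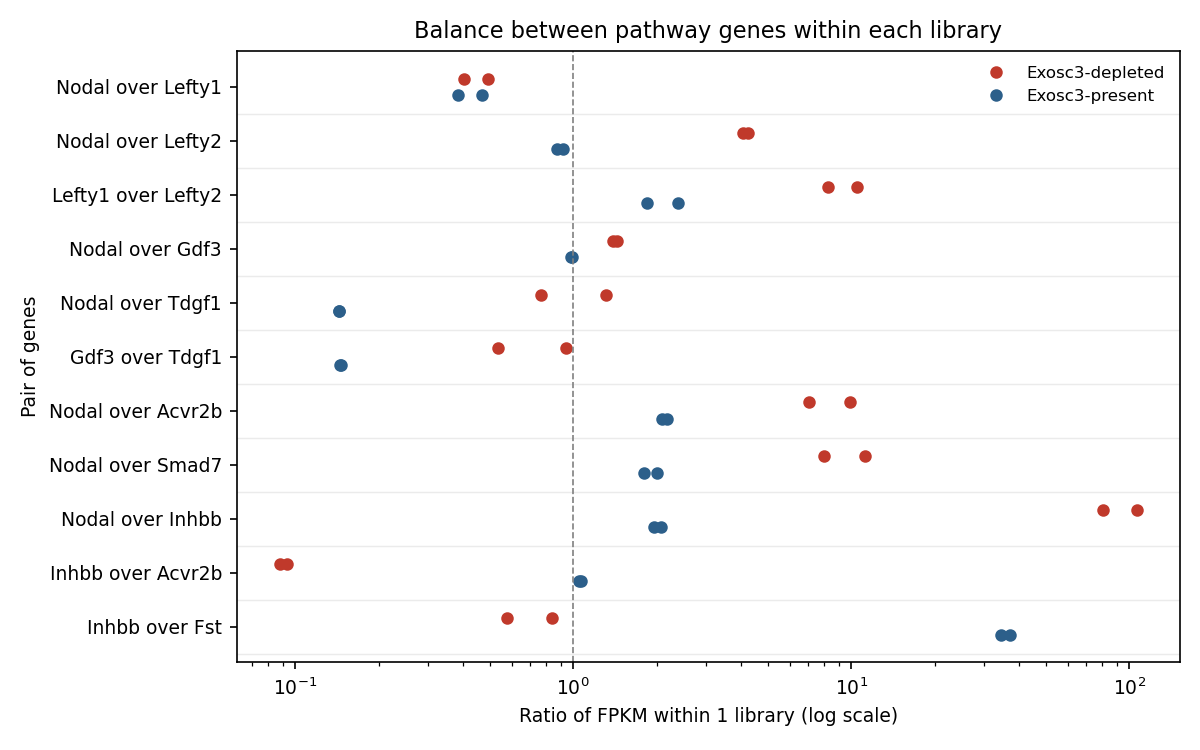
Ratio of the FPKM of 2 genes within each library (log scale), Exosc3-depleted libraries in red above Exosc3-present libraries in blue; the dashed line marks equal levels. Nodal over Lefty1 overlaps between groups, while the other 10 ratios do not.

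Other genes of Nodal, activin and TGF-β signalling were taken from a list of 53 set by role. Of these, 8 had no row under their symbol, 18 were under the filter and 27 were tested. Among the 27, 3 rose, 10 fell and 14 did not pass, so 48.1% were called, close to the 42.7% of all tested rows, and their median log2 fold change was -0.25. After scaling without the 50 highest rows, 4 rose and 3 fell, and after median-of-ratios scaling 5 rose and 4 fell. When the filter used the Exosc3-present libraries alone, 25 were tested, of which 1 rose and 9 fell. In that fit 823 of all 9130 tested rows rose and 2932 fell. All 3 tested ligands and processing enzymes fell, beside 30.1% of all tested rows. Of the 12 listed in this class, 8 were under the filter. Among those, Tgfb2 rose and Inhbc and Inhbe fell in the fit with no filter on low values. Tgfb1, which encodes TGF-β1, was at 1.22 and 0.979 FPKM in Exosc3-depleted libraries, against 2.94 and 2.60 FPKM in Exosc3-present libraries (log2 -1.04, limma adjusted p = 0.00503). Its call ended without Exosc3-present replicate 1 (log2 -0.96, limma adjusted p = 0.0600). Furin (log2 -0.65) and Pcsk6 (log2 -0.60), proprotein convertases that cleave Nodal precursors, fell with limma adjusted p-values of 0.0301 and 0.0361. Neither passed under any of the 4 other scalings, nor without either of the Exosc3-present libraries. Of the 2 tested receptors, Acvr1b fell as described. Tgfbr1, the type I TGF-β receptor, was at 1.01 and 2.01 FPKM in Exosc3-depleted libraries and at 0.702 and 0.824 FPKM in Exosc3-present libraries (log2 0.63, limma adjusted p = 0.0881), and passed in 5 of 16 alternative fits.

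Foxh1, the DNA-binding partner of SMAD2 and SMAD3 at Nodal targets, was the 1 gene that rose of 15 tested SMAD proteins, partners and repressors. It was at 36.2 and 28.5 FPKM in Exosc3-depleted libraries, against 14.1 and 12.3 FPKM in Exosc3-present libraries (log2 1.25, SE 0.19, limma adjusted p = 0.00290), and it passed in all 17 alternative fits. In the same class, where 26.7% of the 15 were called beside 42.7% of all tested rows, 3 fell. They were Tgif1, a homeobox repressor of SMAD2 targets (24.1 and 24.95 FPKM in Exosc3-depleted libraries, against 44.9 and 48.5 in Exosc3-present libraries; log2 -0.91), Zfyve9, which encodes the SMAD anchor SARA (log2 -0.70), and the effector gene Smad3 (log2 -0.66). Their limma adjusted p-values were 0.00503, 0.0386 and 0.0499963. Smad3 lies at the threshold and passed in 6 of 17 alternative fits, Zfyve9 in 10 of 16 and Tgif1 in 15 of 17. Smad2, the other receptor-activated SMAD, was at 7.95 and 11.9 FPKM in Exosc3-depleted libraries and at 6.87 and 7.47 FPKM in Exosc3-present libraries, and did not pass (log2 0.42, limma adjusted p = 0.184). Beside 30.1% of all tested rows, 2 of the 4 further extracellular regulators tested fell. These were Ltbp1 (log2 -0.75, limma adjusted p = 0.0117), which holds latent TGF-β in the matrix, and the Nodal antagonist gene Dand5 (log2 -0.55, limma adjusted p = 0.0378). Dand5 passed in 10 of 16 alternative fits and Ltbp1 in 14 of 16. Their means in Exosc3-depleted cells, 0.4997 FPKM for Dand5 and 0.426 FPKM for Ltbp1, lay under the 0.5 FPKM filter. Both genes were therefore tested only through the Exosc3-present libraries, and their count as falls partly follows from the filter. Tmeff1 (log2 -0.25, limma adjusted p = 0.444), a Cripto-binding membrane protein, and the pseudoreceptor gene Bambi (log2 0.17, limma adjusted p = 0.517) did not pass.

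**Figure D4:**
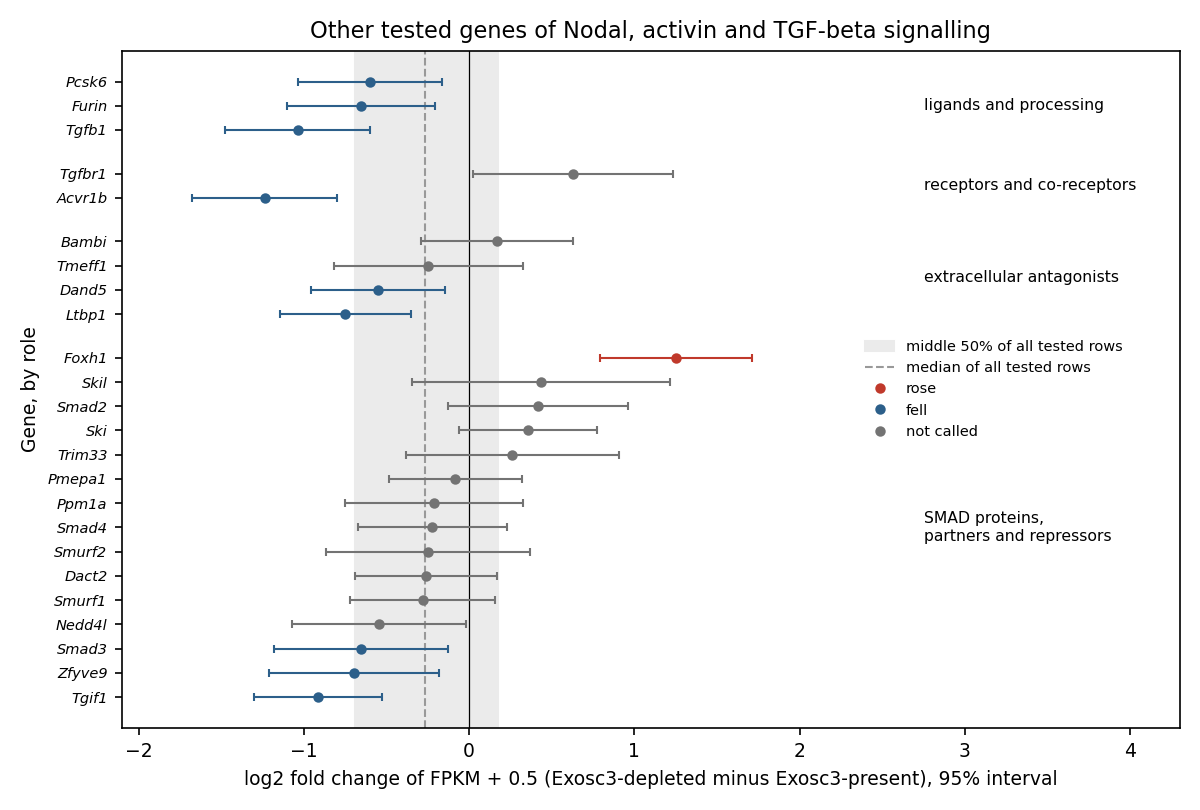
Log2 fold change (Exosc3-depleted minus Exosc3-present, FPKM + 0.5) with 95% limma intervals for the tested genes of the list outside its targets, by role; red rose, blue fell, grey did not pass. Foxh1 lies farthest right, beyond the grey band that holds the middle 50% of all tested rows.

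Among the listed targets, Eomes, which encodes a T-box factor of mesendoderm, fell (log2 -0.57, limma adjusted p = 0.0426; 9 of 16 alternative fits) and was at 0.301 and 0.456 FPKM in Exosc3-depleted libraries, against 0.656 and 0.965 FPKM in Exosc3-present libraries. Among the mesendoderm genes T, Gsc and Mixl1 no library exceeded 0.224 FPKM. Among genes under the filter, the co-receptor gene Tgfbr3, which encodes betaglycan, was at 0.650 and 1.03 FPKM in Exosc3-depleted libraries, against 0.0842 and 0.108 FPKM in Exosc3-present libraries. Tgfbr2 was at 0.477 and 0.518 FPKM in Exosc3-depleted libraries, against 0.106 and 0.132 FPKM in Exosc3-present libraries. With no filter on low values both rose (limma adjusted p = 0.0106 and 0.00691), in a fit where 11.3% of rows did. Cfc1, which encodes the Cripto-related co-receptor Cryptic, was at 0 in both Exosc3-depleted libraries, against 0.0950 and 0.0872 FPKM in Exosc3-present libraries, and fell (log2 -0.24, limma adjusted p = 0.00843). The Cfc1 call rests on only 6 and 5 fragments in the Exosc3-present libraries, which were also the deeper ones. Of the other listed genes under the filter, Tgfb2, Foxa2 and Lhx1 rose and the inhibin subunit genes Inhbc and Inhbe fell in that fit. The rest did not pass, except that Mstn, listed at 0 in every library, was not tested. Over the whole list the fit with no filter called 8 genes as higher and 9 as lower, of 44 tested. Over all 15471 rows it called 1741 as higher and 2888 as lower. Some of the list calls rest on few fragments. Lhx1 had 10 and 9 in Exosc3-depleted libraries and 0 in both Exosc3-present libraries, and Inhbc had 4 and 5 against 15 and 18.

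The tested rows with profiles most like Nodal, by Euclidean distance of centred log2(FPKM + 0.5) over the 4 libraries, were Col7a1 (0.03), Adamtsl5 (0.04) and Atp9a (0.05). Atp9a was at 38.6 and 30.6 FPKM in Exosc3-depleted libraries and at 13.9 and 15.1 FPKM in Exosc3-present libraries. Those most like Inhbb were Mthfd2 (0.08), Gfpt2 (0.12) and Psat1 (0.27), which encode enzymes of mitochondrial folate metabolism, hexosamine synthesis and serine synthesis. Mthfd2 was at 2.83 and 2.87 FPKM in Exosc3-depleted libraries and at 33.6 and 37.2 FPKM in Exosc3-present libraries. With 4 libraries in 2 groups, such likeness mainly says that the sizes of the group differences were alike.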

How the data were processed

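The authors deposited 1 table of FPKM values, with 4 sample columns beside a UCSC identifier and a symbol for each gene. Bowtie2, STAR, Picard, bedtools, edgeR and the mm9 build appear, without roles, in the submitters' processing notes; whether counting used strand is not given in the sources used here. Rows with a mean of at least 0.5 FPKM (9336) were tested with limma 3.58.1 in R 4.3.3 on log2(FPKM + 0.5), using its mean-variance trend and no covariate; this scale understates changes of low genes. Adjustment was Benjamini-Hochberg over all tested rows, two-sided, threshold 0.05, and the code was tested on simulated data. Fragments and model lengths were recovered from the spacing of values (all 15471 rows above 0 gave whole fragments within 0.01, widened for the rounding of the deposited values at high counts; the shortest fitting length was kept). They give depth and a limma-voom alternative, not the main test. The members and lists were chosen with earlier results of these data known. Named genes are the 10 members, Exosc3, up to 4 genes with the smallest p in each role of the list, and the 3 most alike profiles for Nodal and Inhbb; single markers were named after their values were seen. Some genes of the list are counted but not reported by name here. Alternatives covered pseudocount, filter, scaling, trend, robust prior, replicate block and each library left out.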

Additional observations from a re-analysis of the deposited data

How the results depend on the processing

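The direction of the 8 tested members held in all 136 fits of a member under an alternative, and the call held in 125 of them; the 11 lost calls are those given for Gdf3, Acvr2b, Lefty2 and Smad7. With 1 library left out (the lone library is assumed to vary like the pair of the other group), the number of members passing ran from 4 to 8, of all rows from 1750 to 6334, and of the wider list from 5 to 21. The counts of all rows were 2033 and 1750 with Exosc3-present replicate 1 or 2 left out, and 6334 with Exosc3-depleted replicate 2 left out; the wider list had 5, 5 and 21 calls in these fits; the SD of the log2 difference was 0.432 in the Exosc3-depleted pair and 0.188 in the Exosc3-present pair. The wider list had 5 calls with the filter at a mean of 2 FPKM, where 16 genes were tested, and 7 with scaling without the 50 highest rows. The log2 fold change of Tmeff1 changed sign with quantile normalization (0.072) and with scaling without the 50 highest rows (0.084), and ran from -0.57 to 0.077 with 1 library left out. That of Bambi ran from -0.0095 to 0.35 with 1 library left out; the cause was not tested. A pseudocount of 0.5 in both genes moved the log2 change of 4 ratios, to 2.17 for Nodal over Lefty2, 4.52 for Nodal over Inhbb, -3.97 for Inhbb over Fst and -2.62 for Inhbb over Acvr2b, by pulling low values together. The shared replicate numbers are not stated to mark a shared batch; deviations of same-numbered libraries correlated at 0.24 across rows, and the replicate block gave 4899 calls among all rows, 15 in the wider list and 8 members. Scaling to fragments within listed models and limma-voom (8 members called) were added after the data were seen. With 2 libraries a group, small differences stay unresolved.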
